A study of Mus musculus with 28 samples.

Results

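The liver response of mice to phenobarbital plus β-naphthoflavone was measured on 8 of the 28 arrays of the series. They are the 4 arrays of single animals of the positive-control group and the 4 arrays of RNA pooled from the same 4 animals, chosen by their sample titles. The animals were female C57BL/6 mice of 8 to 10 weeks. They received phenobarbital at 60 mg/kg by intraperitoneal injection over 3 days and, on day 2, a single dose of β-naphthoflavone at 80 mg/kg, and livers were taken on day 4. Both agents were given to every treated animal, so their effects cannot be told apart. The second channel of every array held liver RNA pooled from saline-injected mice of the same strain, which the sample labels count as 10 animals and the treatment protocol as 5. The other 20 arrays of the series measured 5 animals given adefovir and 5 given tenofovir, each at 25 mg/kg for 3 days, against the same pool. The series' title puts its question as the effect of such antivirals on P450 genes, and the labels name the inducers as positive control.

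Phenobarbital is the classic activator of the nuclear receptor CAR, and in part of PXR, which switch on genes for the oxidation, conjugation and export of foreign compounds. β-Naphthoflavone is a ligand of the aryl hydrocarbon receptor, whose best known targets are the cytochrome P450 genes of the Cyp1 family. Cytochromes P450 are heme enzymes, and those of the liver oxidise drugs, steroids, bile acids, fatty acids and sterols.

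The genes with the largest differences in each direction were Cyp1a2 and Cyp1a1, the aryl hydrocarbon receptor targets, Cyp2b10, the main mouse P450 induced through CAR, and on the lower side Cyp2e1, a P450 that oxidises ethanol and other small molecules. Their upstream sequences are printed to place them in the genome and to show the contrast between the induced genes. Each is the window of 250 bases before the RefSeq transcription start in GRCm38.p6, 5′ to 3′ on the strand of the gene. Capitals mark GCGTG, the core of the site that the aryl hydrocarbon receptor binds, or its complement CACGC.
Cyp1a1, chr9:57697363-57697612, plus strand: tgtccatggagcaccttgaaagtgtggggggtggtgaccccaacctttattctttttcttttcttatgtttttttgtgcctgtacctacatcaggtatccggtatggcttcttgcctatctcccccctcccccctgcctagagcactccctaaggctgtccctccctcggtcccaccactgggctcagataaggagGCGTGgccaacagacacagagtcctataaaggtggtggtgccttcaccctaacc
Cyp1a2, chr9:57683656-57683905, minus strand: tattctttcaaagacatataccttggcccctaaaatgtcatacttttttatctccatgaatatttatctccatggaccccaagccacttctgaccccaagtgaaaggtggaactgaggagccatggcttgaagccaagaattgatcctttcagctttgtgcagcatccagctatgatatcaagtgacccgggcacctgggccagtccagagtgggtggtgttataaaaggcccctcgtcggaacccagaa
Cyp2b10, chr7:25897408-25897657, plus strand: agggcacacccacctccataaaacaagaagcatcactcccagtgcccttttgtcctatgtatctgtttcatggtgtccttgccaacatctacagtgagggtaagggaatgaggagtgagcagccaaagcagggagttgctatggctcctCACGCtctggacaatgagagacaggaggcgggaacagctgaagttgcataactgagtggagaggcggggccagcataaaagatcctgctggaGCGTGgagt
Cyp2e1, chr7:140763569-140763818, plus strand: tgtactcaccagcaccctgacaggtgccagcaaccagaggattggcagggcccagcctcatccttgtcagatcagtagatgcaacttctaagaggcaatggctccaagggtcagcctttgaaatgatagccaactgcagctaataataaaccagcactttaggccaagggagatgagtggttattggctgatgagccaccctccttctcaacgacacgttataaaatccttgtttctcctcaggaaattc

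Cyp1a1 and Cyp1a2 lie on opposite strands of chromosome 9, with 13958 bases between their starts. The core was found 1 time in the Cyp1a1 window, beginning 54 bases before the start, and 2 times in the Cyp2b10 window, beginning 101 bases before it on the minus strand and 9 bases before it on the plus strand. The windows of Cyp1a2 and Cyp2e1 held none, which says only that these letters are not in these windows. The core is a short string, and 28.2% of the 32851 windows of this length in the table held it on either strand, as did 39 of the 88 array genes with a window. A match is a description of the sequence and not a binding site.

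The focused array carried 120 gene probes with 3 spots each, of which 110 could be named. Each value below is the log2 ratio of treated over saline signal after normalization within the array. On the 4 single-animal arrays the treated RNA was always in Cy3, and the file headers mark the Cy5 channel, which held the saline RNA, as bad. A probe counted as above background where most of its spots exceeded the local background by 2 background SDs. Below background means short of that threshold, so a signal so named can still exceed the local background. Treated signal stood above background for 63 to 84 probes, saline signal for 9 to 29. The pool arrays, 2 in each dye orientation, had 30 to 55 and 33 to 53. Where no single-animal array had saline signal above background, only a bound on the fold can be had, and no fold is given where that bound is under 1. Pool array 1 stood apart, with a median treated-channel background of 1216 against 158 to 408 on the other pool arrays, and correlations with them of 0.54 to 0.72 across the 120 probes, against 0.82 to 0.93 among the others. Leaving it out moved the pool means of the 56 named genes by a median of 0.052 and by 0.40 at most (Cyp1a1). No marker of another liver cell type was on the array (0 of 28 listed), and 2 of 8 listed hepatocyte markers were. These were Apoa1, the main protein of high-density lipoprotein, and Hnf4a, a hepatocyte transcription factor, with treated signal above background on 4 of 4 arrays each and no call of a difference under the scaling used here. As alternatives, the ratios of an array were shifted by a constant, set from the median of gene spots, from calibration or luciferase spots (spikes), or from the reference genes Actb, Gapdh and Ppia, or the loess curve was drawn through the spike spots. Under these Apoa1 was called higher (0.45 to 0.94 under the 4 constant centrings) and Hnf4a lower (-0.48 to -0.43 under 3 of them, the spike and reference centrings). Those 3 centrings moved the median of all probes to between -0.59 and -0.54, so lower calls under them are read against that shift. Hnf4a lay above that median.

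**Figure D1:**
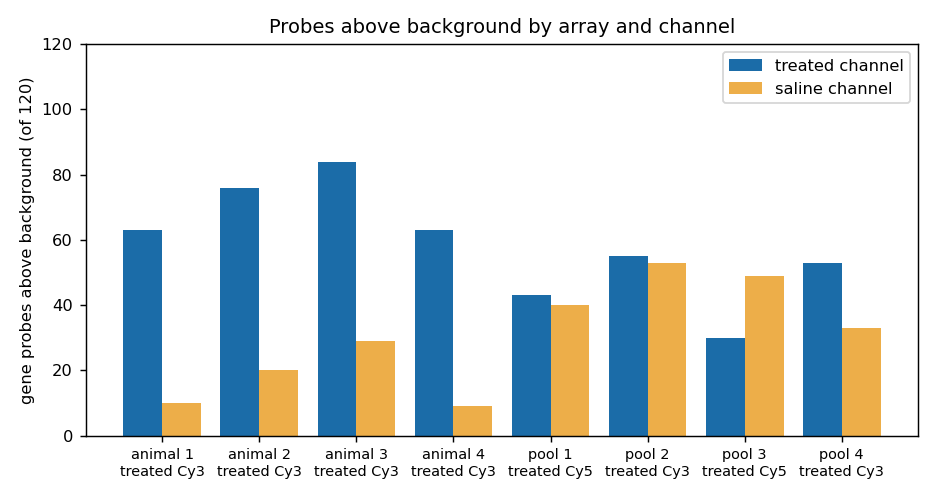
Number of gene probes above background, of 120, on the 8 arrays, in the treated channel (blue) and the saline channel (yellow), with the dye of the treated RNA under each array. The saline bars of the 4 single-animal arrays stand at 9 to 29 and those of the 4 pool arrays at 33 to 53.

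In the test over all probes, 50 of 120 (41.7%) passed an adjusted p of 0.05, 26 higher (21.7%) and 24 lower (20%) than saline. These percentages are the background against which each gene group below is set. Of the 50, 22 had saline signal above background on any single-animal array (9 higher, 13 lower). Another 23 had saline below background on all 4 of these arrays (15 higher, 8 lower). The remaining 5 had both channels below background on all 4 (2 higher, 3 lower). The median log2 ratio over all probes was 0.00. All 4 animals lay on one side of 0 for 55 probes (45.8%), and for 44 of the 50 that passed. With the 4 animals fitted alone, 35 of 120 passed (29.2%), 18 higher and 17 lower, all of them among the 50. The spread between these animals was wider than the shared spread that the main test uses, the median SD over probes being 0.22 here against 0.13 with adefovir and 0.12 with tenofovir. The intervals and p-values below use the shared spread, so they are too narrow where the ratios of these 4 animals varied more. By the median SDs this can hold for many probes. Whole liver was measured, so RNA per cell and the number of cells of a type cannot be told apart.

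**Figure D2:**
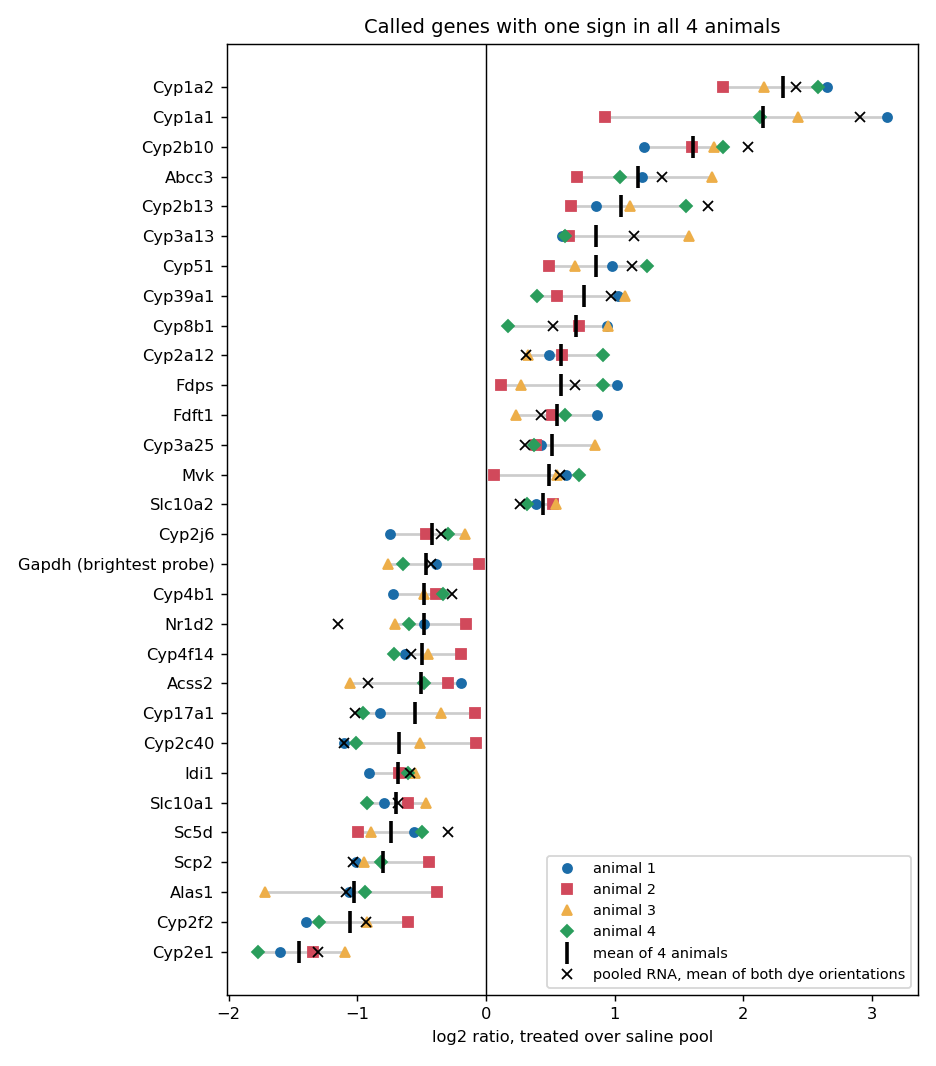
Log2 ratio of treated over saline signal for the 15 higher and 15 lower called genes with the largest mean differences and 1 sign in all 4 animals. Coloured symbols are single animals, the black bar their mean, and the cross the mean of the pool arrays over both dye orientations. Animal 2 (square) lies closest to 0 for many of these genes.

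Animal 2 differed from the others in the size of its measured ratios. Each animal had 1 array in 1 dye orientation, so a smaller response and an effect of the array cannot be told apart. The array of animal 2 had treated signal above background for 76 probes and saline signal for 20. Those of animals 1, 3 and 4 had 63, 84 and 63 treated and 10, 29 and 9 saline. The log2 ratio of animal 2 was the closest to 0 of the 4 animals for 27 of the 50 called probes, against 5, 8 and 10 for animals 1, 3 and 4. The SD of its ratios over all probes was 0.42, against 0.63, 0.59 and 0.59 for animals 1, 3 and 4. Across the 120 probes, which share the arrays' saline pool, its ratios correlated with those of the other animals at r = 0.68 to 0.74, and the others among themselves at 0.80 to 0.87.

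Both measured targets of the aryl hydrocarbon receptor rose, and they had the highest mean ratios on the array. Cyp1a2, a P450 of the liver that oxidises caffeine and aromatic amines, had log2 ratios of 2.65, 1.84, 2.16 and 2.58 in animals 1 to 4. Every animal was high, with animal 2 the lowest. The mean was 2.31 ± 0.38 (SD, n = 4), a 4.96-fold rise (95% interval 2.01 to 2.61 on the log2 scale, adjusted p = 7.2e-09). For Cyp1a2 the mean was 3.53 with median centring and 3.03 to 3.11 under the spike and reference scalings. All of these were called and lay above that interval. On the arrays themselves, the mean of its spots was 46239, 43399, 50070 and 36179 in the treated channel and 1291, 1355, 1226 and 857 in the saline channel. The treated signal was far above the saline signal in each animal, and the saline signal stood above background on 3 of 4 arrays. On the pool arrays its ratio was 2.21, 2.26, 2.65 and 2.53 on arrays 1 to 4, with the treated spots saturated on arrays 1 and 2.

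Cyp1a1, the aryl hydrocarbon hydroxylase that is nearly silent in uninduced liver, had log2 ratios of 3.12, 0.92, 2.43 and 2.13. Animal 1 was the highest and animal 2 far the lowest, with an SD of 0.92. The mean was 2.15 (95% interval 1.69 to 2.61, adjusted p = 1.4e-06), and 2.56 without animal 2. This interval uses the spread shared over all 14 animals and is narrower than the SD of 0.92 among these 4 would give. For Cyp1a1 the mean was 3.17 with median centring and 2.50 to 2.72 under the spike and reference scalings, all called. Its treated spots averaged 3390, 682, 1739 and 1201, and were above background in all but animal 2. Its saline spots averaged 89, 46, 66 and 66, against a local background of 99, 60, 51 and 69. The pool arrays gave 1.77, 3.68, 3.39 and 2.78, and with saline below background there too, Cyp1a1 was at least 2.40-fold higher in the treated RNA. In the 10 antiviral animals its ratio lay between -0.22 and -0.02, below all 4 induced animals.

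Of 10 measured targets of CAR and PXR, 5 rose, 1 fell and 4 did not pass. Their median log2 ratio was 0.43, against 0.00 over all probes, and was 1.31 with median centring and 0.81 to 0.86 under the spike and reference scalings. For all 10, treated signal was above background on most arrays. Cyp2b10 had ratios of 1.23, 1.60, 1.78 and 1.84. The 4 animals lay close together, here with animal 1 the lowest (mean 1.61 ± 0.27 SD, adjusted p = 6.7e-09). Its saline spots averaged 807, 387, 440 and 355 against a local background of 113, 64, 52 and 62. That was short of the threshold for signal above background on every single-animal array, and the rise was at least 2.31-fold. The pool arrays measured both channels on all 4 arrays and gave 2.04, 2.12, 2.06 and 1.92, a 4.10-fold difference with little spread between dye orientations.

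Cyp2b13, a close paralog of Cyp2b10 whose probe can pick up the same RNA, had ratios of 0.86, 0.66, 1.12 and 1.56. The mean of 1.05 ± 0.39 (SD) was a 2.07-fold rise (adjusted p = 1.5e-06), and the pool arrays gave 1.72, or 3.30-fold. Pooled RNA gave a higher ratio than any single animal for Cyp2b13 and for Cyp2b10. Abcc3, an exporter of conjugated drugs and bile acids at the blood side of the hepatocyte, had 1.22, 0.71, 1.76 and 1.05, with animal 3 highest and animal 2 lowest. Its mean was 1.18 ± 0.44 (adjusted p = 1.5e-06) with saline below background, and the pool arrays measured a 2.59-fold difference.

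The Cyp3a genes, whose human relative metabolises many drugs, differed among themselves. Cyp3a13 had ratios of 0.59, 0.64, 1.58 and 0.62, so 3 animals were nearly equal and animal 3 stood above them. Its mean was 0.86 ± 0.48, a 1.81-fold rise (adjusted p = 0.00017), and 0.62 without animal 3. Cyp3a25 had the same shape, with 0.43, 0.39, 0.85 and 0.38 and a mean of 0.51 ± 0.22 (1.43-fold, adjusted p = 0.00055), a call that was lost under loess through spike spots and in the authors' deposited table. Cyp3a41 did not pass, with a mean of 0.19 (95% interval -0.04 to 0.43), but was called higher under 7 of 21 alternatives, at 1.16 to 1.66 under the 4 constant centrings. Its treated spots in animal 3 were saturated, which limits its ratio there.

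Cyp2a4, a steroid hydroxylase, had 0.17, -0.19, 0.38 and 1.02 and did not pass (mean 0.34, adjusted p = 0.056), though it passed as higher under 11 of 21 alternatives, up to 1.04 with median centring. Its animals fell on both sides of 0, with animal 4 high. The pool arrays gave 0.94. The antiviral animals lay between 0.07 and 0.60 against the same saline pool, and the difference from them was 0.03 (adjusted p = 0.89), which passed at 0.81 with median centring. The exporters Abcb1a and Abcc2, which carry drugs and conjugates into bile, had means of -0.27 (adjusted p = 0.052) and -0.06, neither past the threshold. Abcb1a passed as lower under 10 of 20 alternatives, at -0.50 to -0.45 under the 3 spike and reference centrings and at -2.18 in the authors' deposited table.

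Alas1, the first and rate-limiting enzyme of heme synthesis in liver, is a known target of CAR and PXR and was the member of this list that fell. Its ratios were -1.06, -0.38, -1.71 and -0.94. All 4 animals were below 0, with animal 3 lowest and animal 2 nearest to 0 (mean -1.02 ± 0.55 SD, adjusted p = 0.00034, a 2.03-fold fall). The pool arrays gave -0.87, -1.13, -1.10 and -1.26, below 0 in both dye orientations. The antiviral animals lay between -0.34 and 0.61, above all 4 induced animals, and the difference from them was -1.07 (adjusted p = 0.0012). Alas1 passed as lower under every alternative run, over which its mean ran from -1.33 to -0.75.

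Among the 17 measured P450 genes of drug and steroid oxidation, 7 rose, 5 fell and 5 did not pass, with a median of 0.19 (0.94 with median centring and 0.41 to 0.49 under the spike and reference scalings). The 7 are Cyp1a1, Cyp1a2, Cyp2b10, Cyp2b13, Cyp3a13 and Cyp3a25, described above, and Cyp2a12, a steroid and bile acid hydroxylase. Cyp2a12 had 0.49, 0.60, 0.33 and 0.91, with saline signal above background on all 4 arrays (mean 0.58 ± 0.25, 1.50-fold, adjusted p = 2.9e-05). The 5 that fell were Cyp2e1, Cyp2f2, Cyp2c40, Cyp2j6 and Cyp26a1.

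Cyp2e1 had the lowest mean ratio on the array, with -1.60, -1.35, -1.09 and -1.77 in animals 1 to 4. No animal came near 0 (mean -1.45 ± 0.29 SD, a 2.73-fold fall, adjusted p = 5.7e-08). The saline channel measured it on all 4 arrays. Before normalization its spots averaged 8671, 13094, 17114 and 5041 in the treated channel and 4463, 3961, 3747 and 2597 in the weak saline channel, so the fall is relative to other probes of like brightness on the same array. The pool arrays gave -1.13, -1.46, -1.54 and -1.09. When each array was instead centred on its median, the mean was -0.28 and the call was lost (adjusted p = 0.27), and the spike and reference scalings gave -0.79 to -0.73, all called.

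Cyp2f2, best known for activating naphthalene in mouse lung and liver, had -1.39, -0.60, -0.92 and -1.30. Animal 2 was again nearest to 0 (mean -1.05 ± 0.36, a 2.08-fold fall, adjusted p = 1.5e-06). Cyp2c40, an arachidonic acid oxidiser with many close paralogs, had -1.10, -0.08, -0.51 and -1.01, so animal 2 was near 0 while the others were clearly below it (mean -0.68 ± 0.48, 1.60-fold lower, adjusted p = 0.0019). Both calls were lost with median centring, at -0.32 and -0.31. Cyp2j6, an oxidiser of polyunsaturated fatty acids, had a mean of -0.42 (adjusted p = 0.0014) with saline below background, and was not called with median centring. Cyp2j5, Cyp2d22 and Cyp2g1 did not pass, with means of -0.09, -0.21 and -0.07.

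Cyp26a1, which clears retinoic acid, fell by 0.40 on the log2 scale (adjusted p = 0.022), with animal 2 at 0.02 and the others between -0.66 and -0.47. Saline signal did not exceed background on any of the 4 arrays, and the call was lost without animal 1, 3 or 4 and under 4 other alternatives. Against the antiviral animals, whose ratios to the same pool were -1.47 to -0.66, it was higher by 0.66 (adjusted p = 0.0035), but this difference turned to -0.12 with calibration spots and -0.055 with luciferase spots, neither called. Both measured members of the Cyp4 family, which hydroxylate fatty acids and eicosanoids, fell. Cyp4f14 had a mean of -0.49 ± 0.23 (adjusted p = 0.0033) and Cyp4b1 -0.48 ± 0.17 (adjusted p = 2.7e-05), each below 0 in 4 of 4 animals. Saline signal exceeded background on no single-animal array for Cyp4f14 and only on that of animal 3 for Cyp4b1. Both calls were lost in the authors' deposited table, and that of Cyp4b1 also with median centring (-0.21).

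**Figure D3:**
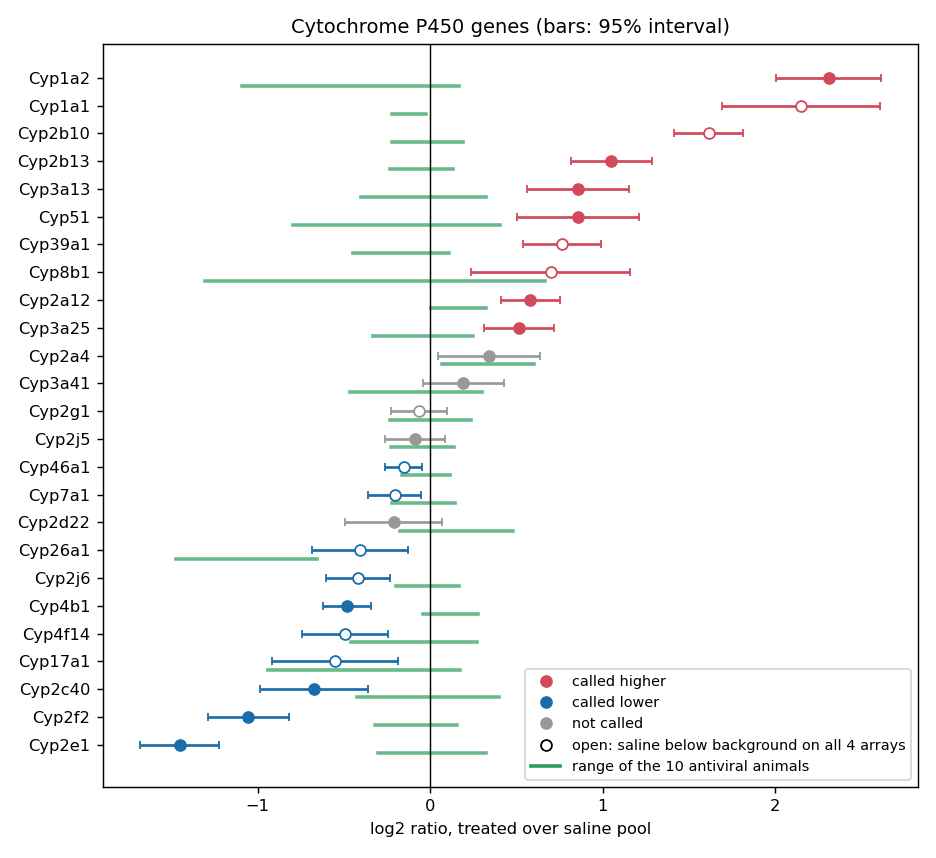
Mean log2 ratio of treated over saline signal, with the 95% interval of the fit, for the 25 named P450 genes. Red, blue and grey mark genes called higher, called lower and not called, open circles genes with no saline signal above background on any single-animal array, and green bars the range of the 10 antiviral animals against the same saline pool. Cyp1a2 and Cyp1a1 stand at 2.31 and 2.15 and Cyp2e1 at -1.45, outside the antiviral ranges.

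Cholesterol is made from acetyl-CoA through mevalonate, isoprenoids, squalene and lanosterol. Of 19 measured genes of this pathway, 8 rose, 4 fell and 7 did not pass. Their median was 0.22, against 0.00 over all probes. Under the spike and reference centrings it fell to -0.054 (calibration), -0.034 (luciferase) and -0.007 (reference genes). The median of all probes was lower still under these centrings, at -0.59 to -0.54, so the list lay above it there too. Cyp51, which removes the 14-methyl group of lanosterol, had 0.98, 0.49, 0.70 and 1.25 (mean 0.85 ± 0.33, 1.81-fold, adjusted p = 0.00079). All 4 animals were above 0, and the pool arrays gave 1.43, 0.79, 1.48 and 0.86, higher with treated RNA in Cy5 (arrays 1 and 3). The call was lost in the authors' deposited table (adjusted p = 0.062).

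Farnesyl diphosphate synthase, Fdps, had 1.02, 0.11, 0.28 and 0.91, with animals 1 and 4 high and animals 2 and 3 low (mean 0.58 ± 0.45, 1.50-fold, adjusted p = 0.023). The call was lost under 7 of 21 alternatives: without animal 1 or animal 4, with centring on calibration spots, loess through spike spots, background subtraction or array weights, and in the authors' deposited table (lowest value 0.39). Fdft1, squalene synthase, had a mean of 0.55 ± 0.26 (adjusted p = 0.0041), and Mvk, mevalonate kinase, 0.49 ± 0.29 (adjusted p = 0.00065), both with saline below background. Centring on calibration spots was among 3 of 19 alternatives that ended each call. Sqle, Dhcr7 and Pmvk are named here after their values were seen. Squalene epoxidase, Sqle, had a mean of 0.50 with animals on both sides of 0 and treated signal above background on 1 of 4 arrays, and Dhcr7, of the last step to cholesterol, had 0.23. Pmvk, phosphomevalonate kinase, had 0.22 with both channels below background on all 4 arrays. The other gene that rose has no name in the annotation.

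Idi1, which isomerises the isoprenoid unit, went the other way, with -0.91, -0.68, -0.55 and -0.61. The 4 animals lay close together (mean -0.69 ± 0.16, a 1.61-fold fall, adjusted p = 0.0021). Sc5d, the sterol C5 desaturase, had -0.56, -0.99, -0.90 and -0.50, and here animal 2 was the lowest (mean -0.74 ± 0.24, 1.67-fold lower, adjusted p = 2.7e-05). Median centring ended the calls of Idi1 (-0.15) and Sc5d (-0.26). Acss2, which makes acetyl-CoA from acetate, had a mean of -0.51 ± 0.39 (adjusted p = 0.036), a call lost under 6 of 21 alternatives, namely without animal 3 or animal 4, with median centring, loess through spike spots or array weights, and with the replicate block (adjusted p up to 0.42). The antiviral animals were as low in Acss2 against the same pool, -1.21 to 0.12, and the difference from them was 0.05 (adjusted p = 0.83). The remaining gene that fell is unnamed. For the sterol regulators Scap, Srebf1 and Srebf2, 0 of 3 passed, although Scap was called lower under 6 of 20 alternatives, among them the 3 spike and reference centrings (-0.70 to -0.65, where the median of all probes was -0.59 to -0.54).

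**Figure D4:**
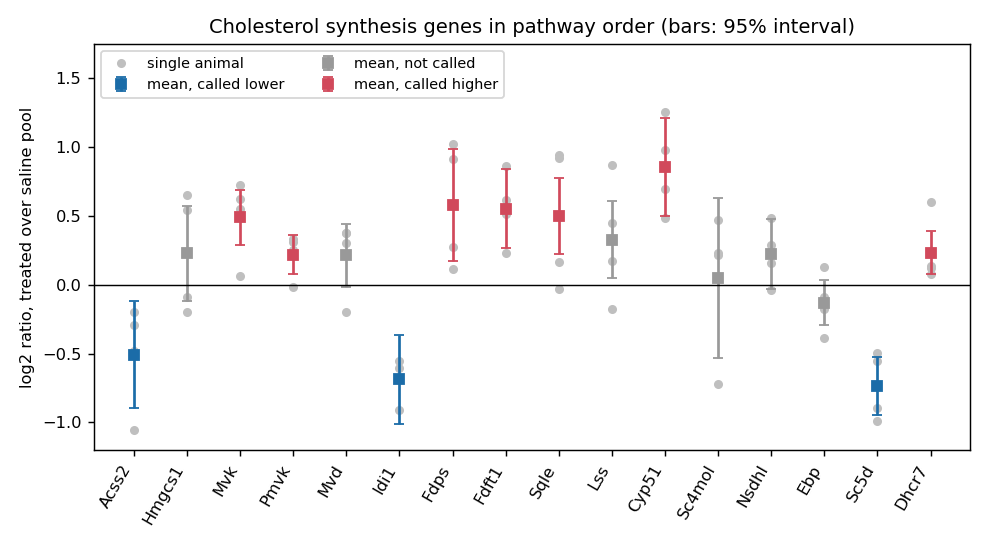
Log2 ratio of treated over saline signal for the 16 named cholesterol synthesis genes, ordered along the pathway. Grey dots are single animals, and squares the mean with the 95% interval of the fit, red for called higher, blue for called lower and grey for not called. Cyp51 has the highest mean, 0.85, and Sc5d the lowest, -0.74.

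Bile acids are made from cholesterol by a chain of P450 enzymes and taken back up from blood by transporters. Of 7 measured synthesis genes, 2 rose, 3 fell and 2 did not pass (median -0.10, but 0.16 with median centring). Cyp8b1, the 12α-hydroxylase that makes cholic acid, had 0.95, 0.73, 0.95 and 0.17, with animal 4 low and the others close together (mean 0.70 ± 0.37, adjusted p = 0.018). That call was lost without animal 1 or animal 3 and under 5 other alternatives, among them loess through the spike spots. Cyp39a1, an oxysterol hydroxylase, had a mean of 0.76 ± 0.34 (adjusted p = 3.5e-05), and both genes had saline below background. Cyp7a1, the rate-limiting enzyme of the pathway, had -0.21 (adjusted p = 0.029) with treated signal above background on 1 of 4 arrays and saline on none, and its call was lost in 8 of 18 alternatives. Cyp46a1, mainly a brain enzyme, was also called lower, at -0.15, but was below background in both channels on all arrays. Its call was lost under 9 of 18 alternatives and its sign turned under 1.

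Scp2, a sterol carrier and thiolase of peroxisomes, had -1.01, -0.44, -0.95 and -0.81 with saline measured on all 4 arrays. Animal 2 was nearest to 0 (mean -0.80 ± 0.25, a 1.74-fold fall, adjusted p = 1.5e-06). On the pool arrays the ratio was -1.32, -0.67, -1.66 and -0.48, lower with treated RNA in Cy5 (arrays 1 and 3). Scp2 was 0.16 with median centring, and its call was also lost under the 3 spike and reference centrings (-0.34 to -0.29) and under loess through spike spots (-0.38).

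Of the bile acid importers, 1 of 3 rose and 2 fell. Slc10a1, the main importer of bile salts into hepatocytes, had -0.79, -0.61, -0.47 and -0.92. No animal was near 0 (mean -0.70 ± 0.20, a 1.62-fold fall, adjusted p = 1.3e-06), and the pool arrays gave -0.51, -0.78, -0.63 and -0.82. Median centring ended the call (-0.26). Slco1a1, an organic anion importer, had -0.32 with both channels below background on all arrays. Slc10a2, the importer of the intestine, had 0.44 with treated signal above background on 2 of 4 arrays, and its call was lost under the 3 spike and reference centrings and without the dye subtraction (lowest value 0.089). Among 10 efflux transporters, 1 rose (Abcc3), 1 fell and 8 did not pass. The one that fell was Abcg8, part of the pump that exports sterols into bile, at -0.38 (adjusted p = 0.0026). Its treated signal was above background on 2 of 4 arrays and its saline signal on none. Abcb11, the bile salt export pump, was at 0.18 (adjusted p = 0.17).

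Few regulators passed the test. Of 26 nuclear receptor and coregulator probes, 2 were called higher, 2 lower and 22 did not pass, with a median of -0.02, and 13 of the 26 were below background in both channels on all 4 arrays. Saline signal exceeded background on a single-animal array for 0 of the 26. Nr1d2, a repressor of the circadian clock, fell with a mean of -0.48 ± 0.24 (adjusted p = 0.0034), and on the pool arrays it was at least 1.51-fold lower. Its treated signal was above background in animals 2 and 3 only. Ppargc1a, a coactivator of fasting metabolism, fell by 0.38 on the log2 scale (adjusted p = 0.0046), with treated signal above background on 4 of 4 arrays and saline on none. With median centring it had 0.063. Its call was also lost with calibration spots, array weights and the dye effect from the pool arrays, and in the authors' deposited table. Nr5a1 and Pparg, the 2 called higher, had 0.25 and 0.18 with saline below background on all arrays and treated on 1 and 0 of 4. Both turned to called lower under the 3 spike and reference centrings (-0.47 to -0.42 and -0.54 to -0.49), and their calls were lost or turned under 10 and 14 of 18 alternatives. Cebpa, a transcription factor of differentiated hepatocytes, had -0.41 ± 0.42 (adjusted p = 0.022), with animal 2 at 0.10, and lost its call under 6 of 21 alternatives, among them without animal 1, 3 or 4. Cyp17a1, a steroid hydroxylase of the adrenal gland and gonads, had -0.55 (adjusted p = 0.018) with saline below background on all 4 arrays. Its call was lost without animal 1 or animal 4, with array weights and with the dye effect from the pool arrays. Cyp17a1 differed from the antiviral animals by -0.09 (adjusted p = 0.71), and by -0.82 to -0.53 under the 3 spike and reference centrings, where this passed. Lipa, lysosomal acid lipase, was the 1 of 7 lipoprotein and sterol handling genes that rose, at 0.38 (adjusted p = 0.0015), with saline below background on all 4 arrays. Its call was lost under 5 of 20 alternatives, the spike and reference scalings and the authors' deposited table, with a lowest value of 0.15.

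The reference genes did not give a common level. Ppia had a mean of 0.32 and passed as higher (adjusted p = 0.0062), a call lost under 5 of 21 alternatives. Actb had 0.22 and did not pass (adjusted p = 0.053, though called under 8 of 21 alternatives). The brightest of 3 Gapdh probes had -0.46 and passed as lower (adjusted p = 0.0019). The sign of that Gapdh probe turned to 0.43 with median centring and to 0.012 with loess through spike spots. The second Gapdh probe, called higher at 0.15, had saline signal above background on no array and lost its call under 12 of 19 alternatives. Its sign turned under 4 more. These were no background correction (-0.0033) and centring on calibration spots, luciferase spots or reference genes (-0.43 to -0.38). These 3 centrings moved the median of all probes to between -0.59 and -0.54, so ratios under them are read against that shift.

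**Figure D5:**
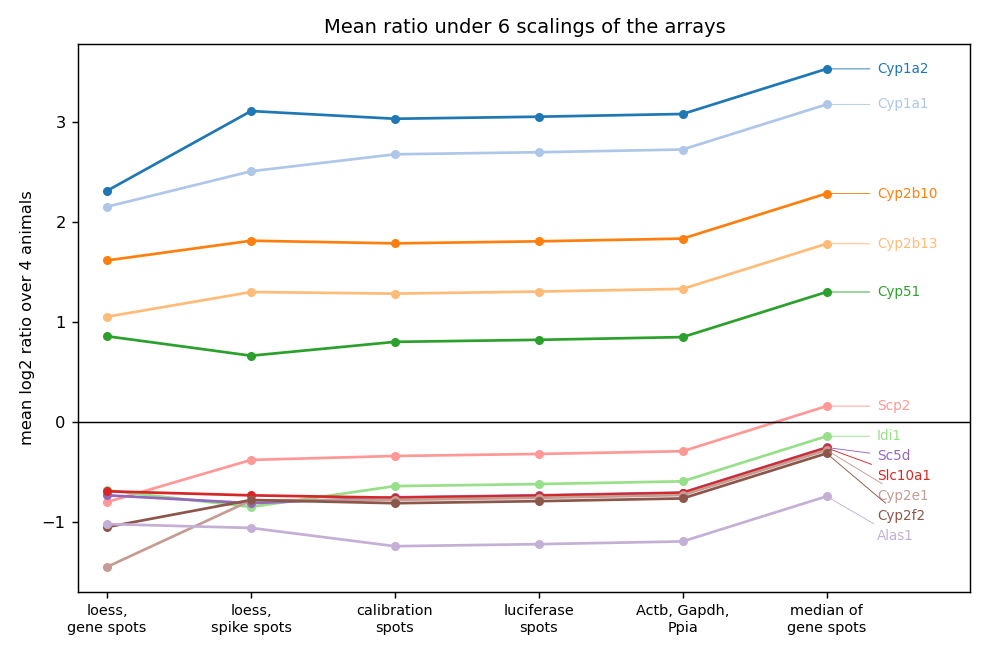
Mean log2 ratio over the 4 animals of 12 called genes under 6 ways of scaling the arrays, from loess over gene spots, used throughout, to centring on the median of gene spots. Cyp1a2, Cyp1a1, Cyp2b10, Cyp2b13 and Cyp51 are above 0 under each of the 6 scalings. Cyp1a2 runs from 2.31 to 3.53, Cyp1a1 from 2.15 to 3.17 and Cyp2b10 from 1.61 to 2.28, each lowest under loess over gene spots. Alas1 runs from -1.25 to -0.75, while Cyp2e1 moves from -1.45 to -0.28 and Scp2 from -0.80 to 0.16.

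In the comparison with the 10 antiviral animals the true level of the saline pool cancels, but the measurement of the saline channel does not. Saline signal stood above background for 9 to 29 probes on the single-animal arrays and for 38 to 78 on the antiviral arrays. The comparison called 44 of 120 probes (36.7%), 24 higher (20%) and 20 lower (16.7%) after the inducers. Cyp1a2 differed by 2.72 (adjusted p = 1.6e-08) and Cyp1a1 by 2.26 (adjusted p = 7.4e-06). Cyp2b10 differed by 1.64, Abcc3 by 1.11 and Cyp2b13 by 1.08, each close to its ratio against saline. On the lower side Cyp2e1 differed by -1.51 (adjusted p = 3.1e-07), Cyp2f2 by -1.03, Scp2 by -0.72 and Slc10a1 by -0.55. Median centring turned Scp2 to 0.29 and ended the calls of Cyp2e1 (-0.30), Cyp2f2 (-0.22) and Slc10a1 (-0.031). Cyp2e1, Cyp2f2 and Slc10a1 stayed called under the spike and reference scalings. Scp2 lost its call under the spike and reference centrings (-0.41 to -0.12). Of the 10 targets of CAR and PXR, 5 were higher and 1 lower than after the antivirals. Of 19 cholesterol synthesis genes, 9 were higher and 2 lower, the antiviral means of Cyp51 against saline being -0.14 with adefovir and -0.50 with tenofovir. The genes named above with no difference from the antivirals past the threshold include, under the scaling used here, Acss2, Cyp17a1, Cyp2a4 and Ppia (0.20, adjusted p = 0.13).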

How the data were processed

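Treated and saline liver RNA were hybridised together with added luciferase and calibration RNAs, per the labels' protocols. The authors deposited median spot intensities of both channels with local background, not normalized, per the file headers. They also deposited a table of log2 ratios, whose normalization and centring the sources used here do not give. On these 8 arrays it correlated with the scanner ratios, as treated over saline, at r of 0.84 to 1.00 across genes, held 19 to 49 probes per array, and had column medians of -0.28 to 0.81.

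Intensities were corrected with normexp (offset 50) and normalized by loess (span 0.3) over gene spots, in R 4.3.3 with limma 3.58.1. The 3 spots of a probe were averaged. A dye effect per probe (SD 0.14), from the antiviral dye exchanges, was subtracted from the single-animal arrays. A model with 1 mean per treatment was fitted over 14 animals (11 residual degrees of freedom), antiviral animals being means of 2 arrays, with Benjamini-Hochberg adjustment over 120 probes. The saline pool counts as 1 control sample, so p-values leave out its spread, and pool arrays entered no test. Probes were above background when most spots exceeded the local background by 2 SDs. Bounds on folds used loess and Aquantile scaling and are open to dye bias. The number of arrays limits the precision.

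Names follow the platform annotation, and 10 probes without one are counted only. Named were called genes with 1 sign in all animals (up to 15 each way), all members of the receptor target and the drug, steroid and fatty acid P450 lists, and up to 5 members of each other list by size of the ratio, unless not called and dim on over 1 array. Genes and lists were chosen with earlier results of these data known. Lists of fatty acid metabolism and inflammation had 0 members on the array. Promoters came from RefSeq's table, which held 88 of 108 array genes. Scripts were tested on simulated data, and figures used Python 3.11.15 with matplotlib 3.10.9.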

Additional observations from a re-analysis of the deposited data

Results flagged for a closer look

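Of 56 named genes tested for an animal standing apart from the other 3, 4 were marked. Chance marks about 1 in 20 such groups. Cyp3a13 had 1.58 in animal 3, against 0.59 to 0.64 in the others. Cyp3a25 had 0.85 in animal 3 too, against 0.38 to 0.43. Apob, the structural protein of very-low-density lipoprotein, had 0.47 in animal 2, against 0.03 to 0.04, and did not pass the test. Cyp46a1, below background in both channels, had -0.036 in animal 2, against -0.20 to -0.18.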

How the results depend on the processing

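Of 42 named and called genes, 10 passed in the same direction under all alternatives that gave a value (up to 21), namely Abcc3, Cyp1a1, Cyp1a2, Cyp2a12, Cyp2b10, Cyp2b13, Cyp39a1, Cyp3a13, Alas1 and Nr1d2. The filter on the saline signal dropped Abcc3, Cyp1a1, Cyp2b10, Cyp39a1 and Nr1d2, so their calls could not be lost there. Nr1d2 was also dropped by the filter on dim probes. Median centring ended the call of 18 of the 42, 15 of them on the lower side, and leaving out an animal that of 12. The saline signal, above background for 9 to 29 probes, limits the precision, and the cause of the changes below was not tested, apart from the smaller number of probes under the filter (31) and in the authors' series table (51). Against saline, genes higher and lower (26 and 24) numbered 31 and 10 with median centring, 16 and 75 with centring on calibration spots, 18 and 80 on luciferase spots, 19 and 80 on Actb, Gapdh and Ppia, 17 and 23 with loess through spike spots (chosen after seeing the data), 11 and 13 with the filter on the saline signal, 16 and 14 with array weights, and 9 and 13 in the authors' series table. The split between higher and lower moved from 52% to 75.6% higher with median centring and to 17.6% to 19.2% with the 3 constant centrings. Minus the antivirals (24 and 20), they numbered 11 and 80 with calibration spots, 14 and 80 with luciferase spots, 73 lower with Actb, Gapdh and Ppia, 48 lower with loess through spike spots, and 6 and 13 in the authors' table. Without 1 animal in turn, counts against saline ran from 19 to 31 higher and 18 to 26 lower, and minus the antivirals from 22 to 27 and 17 to 24.

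With the replicate block the counts were 23 and 20 against saline and 24 and 21 minus the antivirals. The numbers do not pair the animals: deviations of same-numbered animals correlated at a median r of 0.07 (-0.44 to 0.37, 13 pairs), others at -0.03 (-0.47 to 0.52, 52 pairs).

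Direction against saline turned as follows. With median centring Apoa1 had 0.94, Cyp2j5 0.41, Ppargc1a 0.063, Scp2 0.16, Pparg -0.040 and Gapdh 0.43 (brightest probe), the last 0.012 with loess through spike spots. With calibration spots, luciferase spots and Actb, Gapdh and Ppia in turn, Apoa1 had 0.45, 0.47 and 0.49, Pparg -0.54, -0.52 and -0.49, Hnf4a -0.48, -0.46 and -0.43, Nr5a1 -0.47, -0.45 and -0.42, and the second Gapdh probe -0.43, -0.41 and -0.38. With no background correction Cyp46a1 had 0.074 and the second Gapdh probe -0.0033. Minus the antivirals, calibration and luciferase spots gave Cyp26a1 -0.12 and -0.055, Mvk -0.064 and -0.0024, and Slc10a2 -0.25 and -0.19, the last -0.026 without the dye subtraction. Median centring gave Cyp2j5 0.51, Scp2 0.29 and the brightest Gapdh probe 0.51, which had 0.11 with Actb, Gapdh and Ppia.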
